A study of Drosophila melanogaster with 35 samples.

Results

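The genes described here are those of the cytosolic ribosome of Drosophila melanogaster, measured in whole adult male flies during aging and after several stresses. They were chosen by name: every probe set of the array that is annotated to 1 gene whose current symbol starts with RpL or RpS followed by a digit or P, which leaves out the mitochondrial ribosome. This gave 37 genes with 1 probe set each, 22 of the large and 15 of the small subunit, of 13966 probe sets tested (10844 genes had a probe set of their own) and of 92 genes in the annotation that meet the rule. Probe sets annotated to 2 genes, one shared by RpLP0 with euc and the other by RpL36A with CG14645, were left out.

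The ribosome translates messenger RNA, and its large subunit joins amino acids while its small subunit reads the message. Cells make the subunit proteins in equal amounts, and their transcripts are among the most abundant in any tissue. In flies, loss of a single copy of many of these genes gives the Minute phenotype of slow growth and short bristles. Several fly ribosomal proteins are encoded by a pair of genes, of which one member is used in most tissues and the other mainly in the germ line. The 37 genes were therefore described in 3 classes: 27 main copies, 7 duplicates, or second copies, with a wide-acting partner (RpL10Aa, RpL22-like, RpL37-2, RpS10a, RpS19b, RpS28a and RpS5b), and 3 genes that are called ribosomal by symbol only. The last class, RpL24-like, RpL7-like and RpLP0-like, are the fly relatives of the yeast assembly factors Rlp24, Rlp7 and Mrt4, which ride on ribosomes under construction and are replaced or released before translation starts.

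All flies were males of 1 cross, of Oregon-R with a w[1118] strain carrying P{w+ rtTA}(3)[E2], and all carried 1 copy of this transgene, which encodes a drug-dependent transcription activator. Each array was hybridized with RNA of 25 pooled males. The aging arrays compared 6 young controls (10 days old) with 4 pools of old flies (61 days, with about 50% of the cohort alive) and with 6 pools kept in 100% oxygen for 5 days and sampled at 8 days (hyperoxia, also with about 50% alive). These 3 groups came from an earlier experiment than the others. The stress arrays compared 4 stress controls (9 days) with 3 pools held at 37 degrees C for 5.5 hours (heat stress, 9 days, another array having been dropped by the study for its quality), 4 pools given 5666 rads per hour for 16 hours and left to recover (ionizing radiation, 11 days), 4 pools fed 3% hydrogen peroxide (11 days) and 4 pools held in plain 1% sucrose vials for 2 days (sugar, 11 days). Heat-stressed flies were also in sucrose vials during the heat, and the radiation and peroxide flies spent their last 2 days in them. The labels name stress controls among the flies for which sucrose vials were made, whereas the study sets the sugar flies against controls on normal food. If the stress controls were on normal food, heat, radiation and peroxide cannot be told apart from the vials in comparison with them, and radiation, peroxide and sugar flies were also 2 days older than they were. Radiation and peroxide were therefore also set against sugar. Old flies and hyperoxia flies share the young controls, and the other 4 groups share the stress controls.

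The values were signal intensities of the array, quantile normalized here, and changes are differences of group means of log2(signal + 34.1). A gene was called changed at a false discovery rate of 1% in a nested F-test over 6 comparisons with at least a 1.2-fold change, and adjusted p-values are from limma's moderated test of the single comparison over all probe sets. The nested test can therefore pass a gene with a larger single p, or hold back one with a smaller p. Beside the first count of the 37 genes in each comparison stands the share of all 13966 probe sets called the same way, against which the counts of smaller lists can be read too. These are whole-fly extracts, in which fewer cells of a type and less RNA per cell cannot be told apart.

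A pair of arrays stood apart in RNA quality by the actin control. The ratio of 3' to 5' signal for the actin control was 283 in Old replicate 2, against 2.21 to 7.09 in the other aging arrays, and it was 7.44 in Ionizing radiation replicate 1, against 1.48 to 3.51 in the other stress arrays. For the GAPDH control the ratio was 138 in Old replicate 2 and 10.2 in Old replicate 1, against 3.84 to 6.13 in the other aging arrays. The main counts and medians of old and radiation flies are also given without Old replicate 2 and Ionizing radiation replicate 1. Markers of the male reproductive tract were present and differed between groups. The summed signal of 19 testis genes was 181864 to 203644 in young controls, 223634 to 237390 in hyperoxia and 106039 to 126764 in old flies. In the stress arrays it was 165861 to 183790 in stress controls, 194911 to 227649 in heat stress, 203320 to 234990 after radiation, 186630 to 202965 after peroxide and 143204 to 162248 in sugar. That of 10 accessory gland genes was 91185 to 100286 in stress controls, 73027 to 76002.1 in heat stress and 70742.2 to 81616.7 in sugar. It was 33804.7 to 36166.5 after radiation and 28984.5 to 39645.8 after peroxide. In the aging arrays it was 114147 to 121527 in young controls, 100848 to 110742 in hyperoxia and 89937.2 to 96088.4 in old flies. The sum of 12 ovary and female fat body genes was lower than these, between 1742.83 and 6891.09 over all arrays. It was above every young control (at most 5467.61) in old flies (at least 5558.27). It was below every stress control (at least 2571.53) after peroxide (at most 2021.63) and in sugar (at most 2245.87). Of the accessory gland genes, 5 were called lower in old flies, 8 in hyperoxia, 3 in heat stress, 9 after radiation, 9 after peroxide and 7 in sugar, and 1 was called higher in old flies and 1 in sugar. Of the ovary genes, 1 was higher in old flies, 2 higher and 1 lower in heat stress, 1 lower after peroxide and 2 lower in sugar. The part of these tissues in the changes below was not tested.

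In old flies 11 of the 37 genes were up-regulated and 4 were down-regulated, where 10.0% of all probe sets were called higher and 12.2% lower. The up-regulated genes were 9 main copies plus RpL24-like and RpLP0-like, and each of the 4 down-regulated genes was a duplicate. The median log2 change was 0.19 for main copies and -0.56 for duplicates, against 0.04 for all probe sets. At 1.5-fold none of the 37 was higher and 2 were lower (RpL22-like and RpS10a), where 5.02% of all probe sets were higher and 8.11% lower. In 17 genes every old array lay above every young control and in 3 below, where 8.25% of all probe sets lay above and 9.49% below.

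The main copy with the largest called change in old flies was RpS27A, whose protein is made as a fusion with ubiquitin. Its signal was 24236, 35607, 31813 and 29520 in old flies and 18997 (lowest), 21017 (median) and 23050 (highest) in young controls. No old array overlapped the young controls, and the log2 change was 0.52 (SE 0.10, adjusted p = 0.000258, limma). The other ubiquitin fusion of the ribosome, RpL40, had a log2 change of 0.31 (SE 0.08, adjusted p = 0.00511, limma). RpS29, a small subunit protein that binds zinc, had signals of 2272, 3247, 2288 and 2304 in old flies against 1502, 1870 and 2058 (lowest, median and highest) in young controls. The highest of these was the array of poor RNA quality, and the change was 0.47 with it and 0.34 without it (adjusted p = 0.00077 and 0.0103, limma). RpL39, a very short protein that lines the exit tunnel, was at 22307, 25656, 21220 and 22083 in old flies and at 16394, 17254 and 18827 in young controls. Its change was 0.39 (SE 0.07, adjusted p = 6.33e-05, limma), and it was called higher in all 6 comparisons with controls. RpL29, RpS28b, RpL23, RpL37A and RpL37-1, at 0.35, 0.34, 0.32, 0.29 and 0.27, were the remaining main copies called.

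Without Old replicate 2 the counts in old flies were 8 higher and 5 lower, where 9.31% of all probe sets were higher and 11.9% lower. The medians were 0.18 for main copies and -0.59 for duplicates. In 19 genes every remaining old array lay above every young control and in 3 below, where 10.7% of all probe sets lay above and 11.5% below. RpL37-1, RpL40 and RpLP0-like were no longer called without it (log2 0.23, 0.24 and 0.28, adjusted p = 0.0243, 0.0403 and 0.209, limma). In the array left out, the ribosomal stalk gene RpLP2 read 14952, where the other 3 old arrays read 24710, 31509 and 31813.

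Hyperoxia called 6 of the 37 genes higher and none lower, where 8.07% of all probe sets were called higher and 7.61% lower. The main copies among them were RpL39 (log2 0.31, SE 0.06) and RpLP2 (0.40, SE 0.11). RpLP2, which with RpLP1 forms the flexible stalk that recruits elongation factors, had signals of 32958 to 41967 in the 6 hyperoxia arrays and 26753 to 29163 in the 6 young controls, so the groups did not overlap (adjusted p = 0.0124, limma). Its stalk partner RpLP1 and its anchor RpLP0 had changes of 0.12 and 0.06 and were not called. The duplicates RpL10Aa and RpS28a and the assembly relatives RpL24-like and RpLP0-like made up the other 4. The median log2 change of the main copies was 0.09, against 0.02 for all probe sets. At 1.5-fold only RpLP0-like was called, higher, where 3.18% of all probe sets were higher and 4.14% lower. In 8 genes every hyperoxia array lay above every young control and in 0 below, where 5.33% of all probe sets lay above and 5.36% below.

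**Figure D1:**
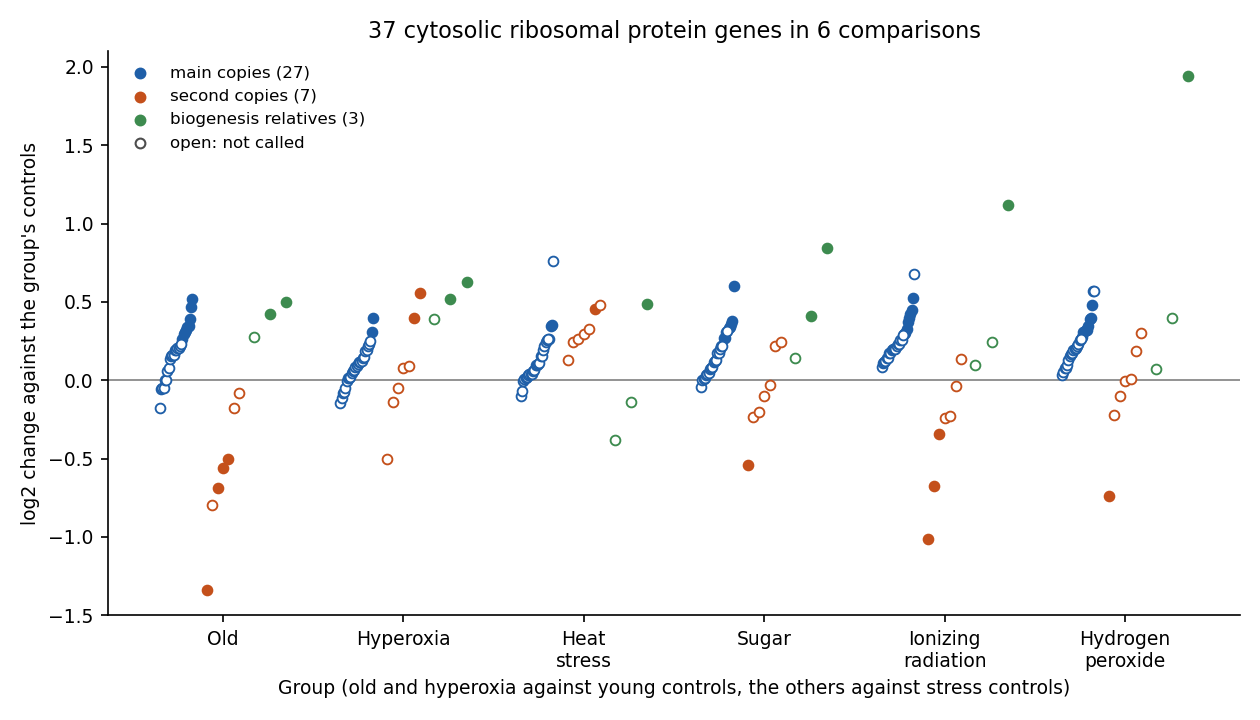
Log2 change of each of the 37 genes (vertical axis) in 6 comparisons with controls (horizontal axis), with filled points for genes that were called and open points for those that were not. Main copies lie between -0.18 and 0.52 in old flies, whereas all 7 duplicates lie below 0 there and RpL24-like is the highest point after sugar, radiation and peroxide.

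After heat stress 5 genes were called higher and none lower, where 9.92% of all probe sets were called higher and 10.8% lower. They were RpL23, RpL37A and RpL39 among main copies, with changes of 0.35, 0.34 and 0.26, and RpL10Aa and RpL24-like. All 5 belong to the large subunit or its assembly, and none of the 15 small subunit genes was called. The median log2 changes were 0.12 over all large and 0.15 over all small subunit genes, and the difference was not tested. With arrays scaled to a common trimmed mean 20 main copies were called higher here. That is more than the main copies of the large subunit, so small subunit genes were among them. RpL28, a large subunit protein, read 11347, 12125 and 17468 in heat-stressed flies and 7996, 8145, 9193 and 6420 in stress controls, a change of 0.76 (SE 0.21, adjusted p = 0.00773, limma). The groups did not overlap, but RpL28 did not pass the nested test here, nor after radiation (0.68) or peroxide (0.57). It was singled out after its values were seen. At 1.5-fold none of the 37 was called, where 5.27% of all probe sets were higher and 7.04% lower. In 14 genes every heat stress array lay above every stress control and in 1, RpS29, below, where 16.4% of all probe sets lay above and 16.3% below.

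Ionizing radiation up-regulated 9 genes and down-regulated 3 against stress controls, where 11.5% of all probe sets were called higher and 11.2% lower. All 27 main copies had a change above 0, 8 of them were called, and their median was 0.23 against 0.02 for all probe sets. RpL29 read 41116, 38462, 36492 and 39183 after radiation and 28734, 27250, 25785 and 26287 in stress controls. These groups were well apart, with a change of 0.52 (SE 0.07, adjusted p = 4.37e-07, limma). RpL37A, RpL23 and RpLP1 followed at 0.45, 0.42 and 0.40, then RpS21, RpS12, RpL39 and RpS28b at 0.37, 0.33, 0.30 and 0.29. RpS12 is the protein through which flies sense an imbalance of ribosomal proteins between neighboring cells. At 1.5-fold 1 gene was higher (RpL24-like) and 2 were lower (RpL22-like and RpS5b), where 7.05% of all probe sets were higher and 7.38% lower. In 22 genes every radiation array lay above every stress control and in 3 below, where 14.0% of all probe sets lay above and 12.8% below. Without Ionizing radiation replicate 1 the counts were 10 higher and 4 lower, where 10.9% of all probe sets were higher and 10.6% lower, all 12 calls remained, and the medians were 0.24 for main copies and -0.41 for duplicates.

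Hydrogen peroxide up-regulated 11 genes and down-regulated 1, where 13.5% of all probe sets were called higher and 11.8% lower. Again all 27 main copies had a change above 0, of which 10 were called, and their median was 0.23 against 0.05 for all probe sets. RpL29 led with signals of 40462, 39892, 38732 and 41363 and a change of 0.57 (SE 0.07, adjusted p = 6.86e-08, limma). RpS12 read 30251, 27936, 30052 and 31509 after peroxide and 22181, 20616, 22822 and 20256 in stress controls, a change of 0.48 (SE 0.08, adjusted p = 8.09e-06, limma). RpS27A, RpL23, RpLP1, RpS21, RpL39, RpL27, RpL32 and RpS28b had changes of 0.28 to 0.40. At 1.5-fold 1 gene was higher (RpL24-like) and 1 lower (RpL22-like), where 8.22% of all probe sets were higher and 8.81% lower. In 24 genes every peroxide array lay above every stress control and in 1 below, where 16.8% of all probe sets lay above and 14.1% below.

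Sugar flies had 10 genes called higher and 1 lower against stress controls, where 7.34% of all probe sets were called higher and 4.95% lower. The 8 main copies were RpS27A (0.60), RpL39 (0.38), RpL10Ab (0.36), RpL23 (0.34), RpL29 (0.34), RpL27 (0.31), RpLP1 (0.27) and RpL32 (0.27). RpS27A read 27449, 28114, 25656 and 27936 in sugar flies and 16899, 17796, 20758 and 16544 in stress controls, with no overlap (SE 0.11, adjusted p = 0.000898, limma). RpLP0-like was also called (0.41), although its own adjusted p was 0.115 in limma, and the last of the 10 was RpL24-like (0.84). At 1.5-fold 2 were higher (RpL24-like and RpS27A) and none lower, where 2.80% of all probe sets were higher and 2.13% lower. In 17 genes every sugar array lay above every stress control and in 1 below, where 12.7% of all probe sets lay above and 11.1% below. The sugar arrays were deposited on a lower scale, with trimmed means of 106 to 166 where the other arrays had 992 to 995, and their levels were set only by normalization. Vials, age and this difference of scale cannot be told apart in the comparison of sugar with stress controls.

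Radiation and peroxide were then set against sugar. After radiation 1 gene, RpS21, was called higher (log2 0.33, SE 0.08, adjusted p = 0.00122, limma) and none lower, where 7.28% of all probe sets were called higher and 8.79% lower. After peroxide 3 were higher, RpL24-like (1.10), RpS21 (0.28) and RpL17 (0.28), and none lower, where 8.38% of all probe sets were called higher and 9.67% lower. These 3 fell to 1 without Sugar replicate 3 or 4 or Hydrogen peroxide replicate 1 or 4. At 1.5-fold none was called for radiation, where 5.68% of all probe sets were higher and 7.22% lower, and RpL24-like alone for peroxide, where 6.19% were higher and 8.17% lower. In 10 genes every radiation array lay above every sugar array and in 3 below, where 14.2% of all probe sets lay above and 14.6% below, and for peroxide 9 lay above and 2 below, where 16.4% and 13.9% did. With scaling to a trimmed mean 16 genes were called for peroxide and 1 for radiation against sugar, where 8.55% and 7.45% of all probe sets were called higher. With cyclic loess 14 and 7 were called, where 8.21% and 7.03% were. The median change of the 27 main copies was 0.11 for radiation and 0.07 for peroxide against sugar. RpS21 read 0.04 above stress controls in sugar and was not called there.

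The large and small subunits can be compared over their 16 and 11 main copies. The median log2 changes, large then small, were 0.19 and 0.21 in old flies, 0.07 and 0.12 in hyperoxia, 0.11 and 0.04 in heat stress, 0.23 and 0.22 after radiation, 0.26 and 0.20 after peroxide and 0.23 and 0.12 in sugar. Neither subunit had the higher median throughout. The called genes divided, large then small, 6 and 3 in old flies, 2 and 0 in hyperoxia, 3 and 0 in heat stress, 5 and 3 after radiation, 6 and 4 after peroxide and 7 and 1 in sugar. The difference between the subunits was not tested. Over all comparisons with controls no main copy was called lower, 11 of the 27 were never called, and RpL23 was called higher in all but hyperoxia. The never-called main copies included RpL3, which sits at the catalytic center, and RpLP0. The left-out probe set that RpLP0 shares with euc was called lower in old flies (-0.40), hyperoxia (-1.08), radiation (-1.45) and peroxide (-0.41). It was called higher in sugar (0.44). That of RpL36A and CG14645 was called lower in heat stress (-0.93). Which of its 2 genes each of these probe sets read was not tested. Rack1, a scaffold protein of the small subunit whose symbol falls outside the rule, was not called in any of the 6, with changes of -0.19 to 0.08.

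Summed over the 37 probe sets, the deposited signal gave a measure that did not depend on the normalization used here. It made up 4.24% to 4.43% of all signal in stress controls, 5.25% to 5.44% in heat stress, 4.68% to 5.00% in sugar, 5.11% to 5.81% after radiation and 5.57% to 6.04% after peroxide. In the aging arrays it was 4.41% to 4.79% in young controls, 4.73% to 5.03% in hyperoxia and 5.28% to 5.94% in old flies. Each of these ranges lay above that of its controls except hyperoxia, which overlapped. Without the arrays of low RNA quality the ranges were 5.28% to 5.77% in old flies and 5.11% to 5.24% after radiation. The main copies carried nearly all of it, with means of 4.27% in stress controls and 5.75% after peroxide.

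**Figure D2:**
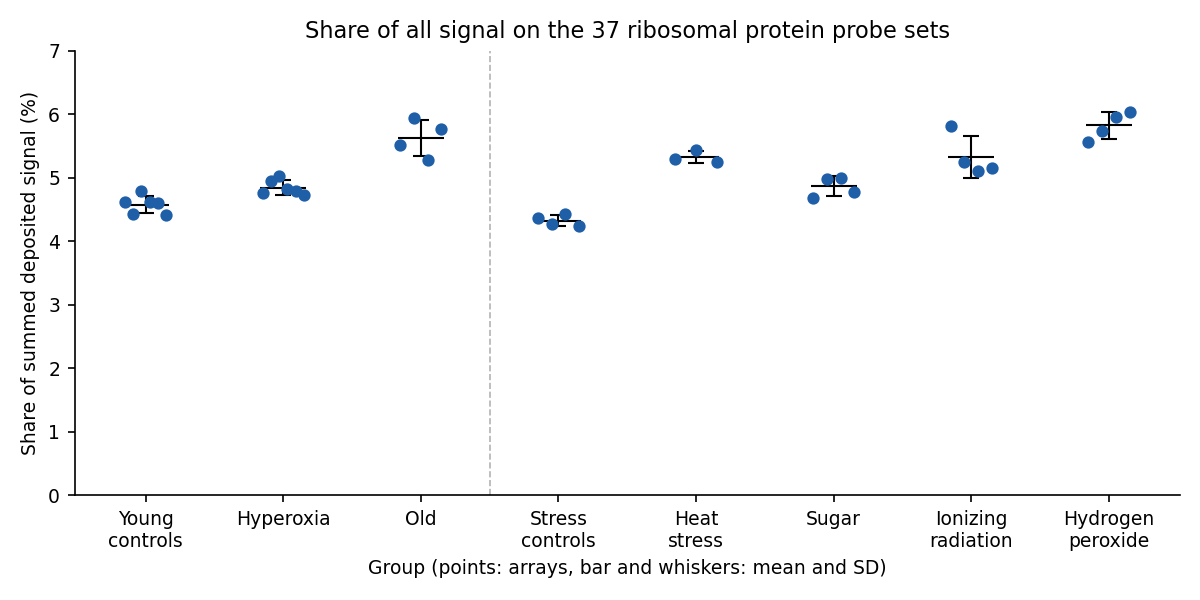
Share of each array's summed deposited signal on the 37 ribosomal protein probe sets in percent (vertical axis), by group, with points for arrays and bars for the mean and SD. Old flies (5.28% to 5.94%) lie above young controls (4.41% to 4.79%), and all 4 groups of the stress arrays lie above stress controls (4.24% to 4.43%).

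How many main copies were called depended on the normalization. Of the 27, 26 had a median rank of 254 or better among 13966 probe sets (RpS29 did not), and quantile normalization gives that end of each array the same values. With arrays scaled to a common trimmed mean instead, 23 of the 37 genes were called higher in old flies, 23 in heat stress and 23 after peroxide, in place of 11, 5 and 11, where 9.74%, 10.7% and 13.9% of all probe sets were called higher. All of the genes called higher with quantile normalization in those 3 comparisons were among them. Cyclic loess gave 17, 22 and 19, where 9.82%, 10.7% and 13.0% were. After radiation scaling and loess gave 12 and 17 in place of 9, where 12.1% and 10.9% of all probe sets were called higher. In sugar they gave 7 and 6 in place of 10 (7.05% and 6.59% of all), and in hyperoxia 5 each in place of 6 (9.09% and 7.61% of all). Under none of these was a main copy called lower, and of the duplicates 5 were called lower and none higher in old flies with scaling and with loess alike.

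**Figure D3:**
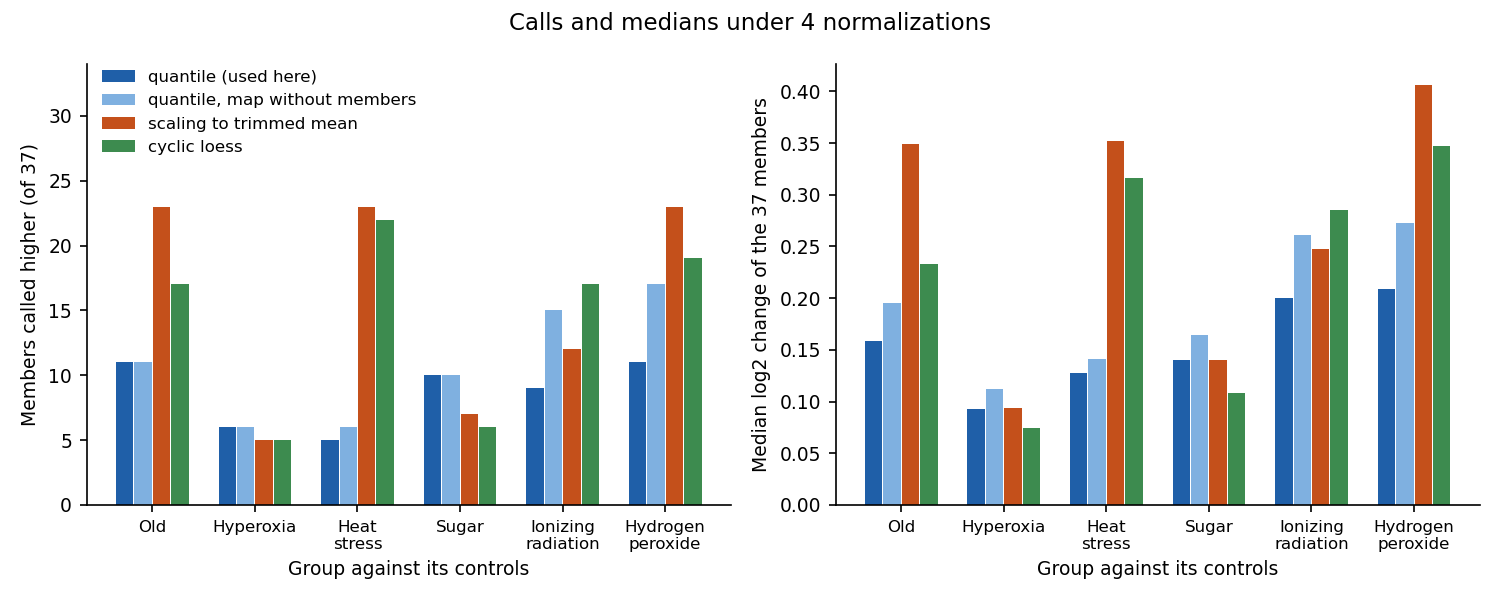
Genes called higher of 37 (left, vertical axis) and median log2 change of the 37 genes (right, vertical axis) in 6 comparisons, with bars for 4 normalizations. Heat stress moved the most, from 5 genes with quantile normalization to 23 with scaling, while hyperoxia stayed at 5 or 6.

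The duplicates had lower medians than the main copies in old flies and after radiation (-0.56 and -0.24 against 0.19 and 0.23). Their medians were also lower after peroxide and in sugar, slightly negative in both, against 0.23 and 0.17 for main copies. They had a like median in hyperoxia (0.08 against 0.09) and a higher one in heat stress (0.30 against 0.10). The difference between the classes was not tested. All 7 duplicates had a change below 0 in old flies, and 4 were called. RpL22-like, a testis-enriched relative of RpL22, read 226, 150, 231 and 69.2 in old flies and 282 (lowest), 478 (median) and 623 (highest) in young controls, a 2.53-fold decrease (log2 -1.34, SE 0.24, adjusted p = 8.08e-05, limma). No array overlapped. It was also down-regulated after radiation, where it read 143, 258, 315 and 340 against 587, 553, 457 and 587 in stress controls (log2 -1.01, SE 0.27, adjusted p = 0.00468, limma). After peroxide it read 238, 413, 398 and 240 (log2 -0.74, SE 0.27, adjusted p = 0.0358, limma), and this call ended without Hydrogen peroxide replicate 1 or 4 (-0.62 each). In heat stress (0.30), sugar (-0.24) and hyperoxia (-0.50) it was not called, and against sugar neither radiation (-0.77, adjusted p = 0.0326, limma) nor peroxide (-0.50) passed.

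RpL10Aa moved in opposite directions in old flies and under hyperoxia. It read 716, 903, 921 and 799 in old flies, 1047, 1232 and 1291 (lowest, median and highest) in young controls and 1396, 1598 and 1708 in hyperoxia. The ranges of these 3 groups did not overlap. The change was -0.50 in old flies (SE 0.10, adjusted p = 0.000175, limma) and 0.40 in hyperoxia (SE 0.09, adjusted p = 0.00109, limma), and old minus hyperoxia was -0.90 (SE 0.10, adjusted p = 1.46e-08, limma). It was higher in heat stress too, at 1661, 1616 and 2000 against 1353, 1309, 1313 and 1109 in stress controls (0.46, SE 0.11, adjusted p = 0.00404, limma). RpS28a showed the same pair of signs, -0.56 in old flies and 0.56 in hyperoxia, and old minus hyperoxia was -1.12 (SE 0.20, adjusted p = 4.82e-05, limma). Its old arrays were uneven, at 151, 400, 206 and 366 against 323, 389 and 524 in young controls, and they overlapped them. The call in old flies ended without Old replicate 1 or 3 (-0.33 and -0.46, adjusted p = 0.249 and 0.127, limma). Old minus hyperoxia was added after the values were seen. For genes called in opposite directions against shared young controls it was close to certain to pass, so it is no separate support.

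RpS10a was called lower in old flies only, at 468, 389, 534 and 527 against 676, 793 and 892 (lowest, median and highest) in young controls, with no overlap (log2 -0.69, SE 0.12, adjusted p = 7.67e-05, limma). Whether that change differs from those of the stresses was tested only against hyperoxia, where the difference was -0.55 (SE 0.12, adjusted p = 0.00113, limma). RpS19b, a germ line duplicate of RpS19a, read 374, 526, 302 and 237 in old flies against 344, 694 and 790 in young controls. The low young array reached into the old range, and the change of -0.80 (SE 0.22, adjusted p = 0.00571, limma) did not pass the nested test. Over all 37 genes, old against hyperoxia called 5 lower, these 4 duplicates and RpLP2 (-0.58), and 4 higher, RpS29 (0.55), RpL37A (0.41), RpS12 (0.36) and RpL29 (0.32), where 10.1% of all probe sets were lower and 7.17% higher. The difference was -0.88 for RpS19b (SE 0.22, adjusted p = 0.0024, limma). Without Old replicate 2 the difference was -0.34 for RpLP2, still called, and -0.45 for RpS10a, no longer called (adjusted p = 0.0104, limma). Without Old replicate 3 or 4 RpS19b (-0.82 and -0.71) and RpL37A (0.36 and 0.39) were not called.

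RpS5b, a duplicate used mainly in the germ line, followed another order. It read 1619, 1549, 1379 and 1424 in stress controls, 973, 963, 1096 and 1017 in sugar, 1058, 793, 881 and 968 after radiation and 1428, 1123, 1214 and 1353 after peroxide. Sugar and radiation flies lay below every stress control, with changes of -0.54 (adjusted p = 0.000471, limma) and -0.68 (adjusted p = 1.88e-06, limma), while the peroxide flies overlapped the stress controls and were not called (-0.22). Radiation against sugar gave -0.13 (adjusted p = 0.377, limma), and peroxide minus radiation gave 0.46 (SE 0.10, adjusted p = 0.000881, limma). The latter comparison was added after the values were seen. Of the 37 genes it called only RpL24-like and RpS5b higher and RpL37A lower (-0.41, adjusted p = 0.0089, limma), where 5.61% of all probe sets were higher and 5.88% lower. RpL37A was not called without, for example, Ionizing radiation replicate 1 (-0.32, adjusted p = 0.0549, limma). In old flies and hyperoxia the changes of RpS5b were -0.17 and -0.05. RpL37-2 was called lower after radiation (-0.34, SE 0.10, adjusted p = 0.00767, limma), at 1311, 1085, 978 and 1120 against 1353 to 1515 in stress controls.

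**Figure D4:**
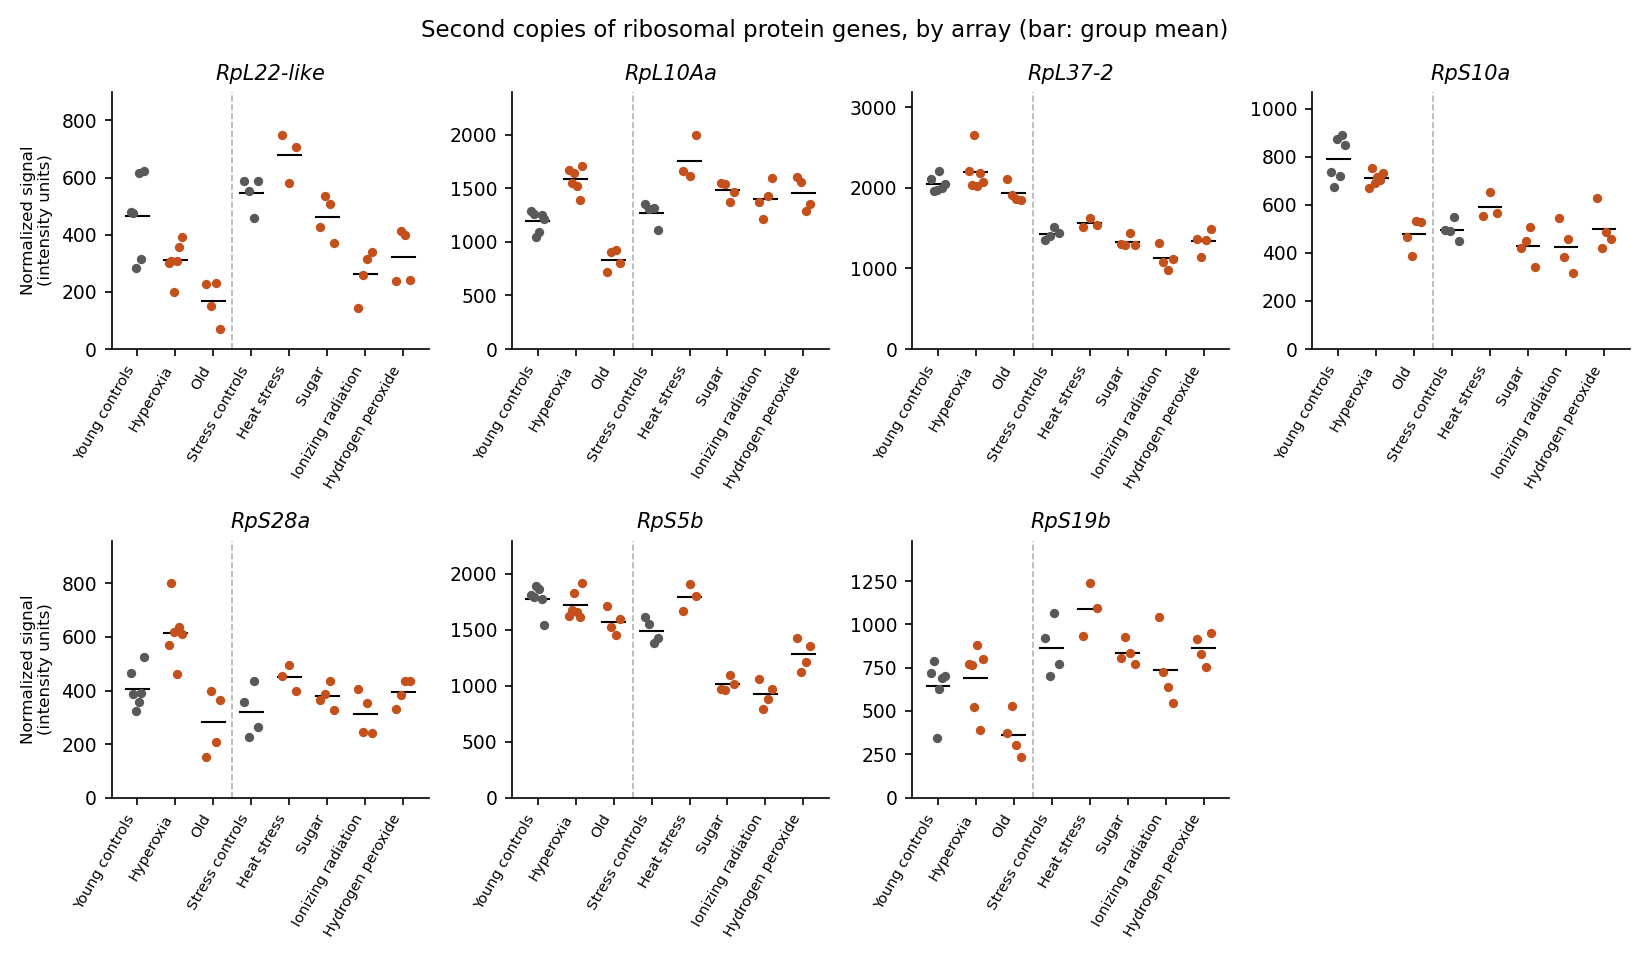
Normalized signal in intensity units (vertical axis) of the 7 duplicates in each of the 35 arrays, by group, with gray points for control groups, orange points for the others, a bar for the group mean and a dashed line between aging and stress arrays. RpL10Aa and RpS10a separate old flies from young controls without overlap, and RpS5b is low in both sugar and radiation flies.

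Of the 19 testis markers, 14 were called lower in old flies and none higher (median -0.75), among them Mst98Ca (-1.22) and bol (-1.16), a translation regulator of meiosis. In hyperoxia 5 were higher and 2 lower (median 0.17), in heat stress 10 were higher and none lower (0.41), after radiation 8 were higher and 2 lower (0.22), after peroxide 3 were higher and none lower (0.25), and in sugar 2 were higher and 4 lower (-0.07). The duplicates had medians of -0.56, 0.08, 0.30, -0.24, -0.0039 and -0.10 in the same order of 6 comparisons. The signs of the medians were alike in old flies, hyperoxia, heat stress and sugar and opposite after radiation. After peroxide the median of the duplicates, at -0.0039, was too small for its sign to be read. Their medians in hyperoxia (0.08) and sugar (-0.10) were small too, where duplicates had a median SD of 0.18 between arrays of a group. In hyperoxia the main copies had a like median (0.09). The part of the testis in the changes of the duplicates was not tested.

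For 4 pairs, a duplicate or relative could be set against its main copy on the same array, as the change in their log2 difference between groups. These 24 comparisons were tested by exact two-sided permutation of arrays, where 4 or 3 arrays against 4 cannot go below p = 0.0286. The smallest possible p was 0.00476 in old flies and 0.00216 in hyperoxia. In old flies the difference fell by 0.45 for RpL10Aa minus RpL10Ab, by 0.35 for RpL37-2 minus RpL37-1 and by 0.90 for RpS28a minus RpS28b (each exact p = 0.00476, adjusted p = 0.0286). RpL10Ab itself changed by -0.05 in old flies, so that pair moved through RpL10Aa, whereas in the RpL37 pair the main copy rose by 0.27 and RpL37-2 changed by -0.08. In the RpS28 pair both genes were called, in opposite directions. The 3 stress groups held in sucrose vials for 2 days each had a lower RpL37-2 to RpL37-1 difference than stress controls, by -0.45 after radiation, -0.35 after peroxide and -0.18 in sugar (each exact p = 0.0286, the smallest possible, adjusted p = 0.0763). Each gene had 1 probe set, and whether a probe set also read the other gene of its pair was not tested.

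RpLP0-like against RpLP0 was the pair whose difference passed the test in hyperoxia, at 0.56 (exact p = 0.00216, adjusted p = 0.0286). RpLP0-like read 683, 739 and 1038 (lowest, median and highest) in hyperoxia and 348, 522 and 572 in young controls, without overlap, and its own change was 0.63 (SE 0.13, adjusted p = 0.000914, limma). The remaining 20 comparisons of pairs had adjusted p-values of 0.0763 or more in the exact test. In the stress arrays even pairs at the smallest possible exact p, 0.0286, had an adjusted p of 0.0763. A miss there reflects the number of arrays and does not set the stresses apart from old flies or hyperoxia.

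RpL24-like was the gene of the 37 with the largest increases after sugar, radiation and peroxide, and it was called higher in all 6 comparisons. Its relative in yeast holds the place of the ribosomal protein L24 on the immature large subunit until export. It read 1579, 1727, 1806 and 1404 in stress controls, 2152, 2461 and 2260 in heat stress and 2770, 2967, 2980 and 3018 in sugar. It reached 4343, 3288, 3315 and 3376 after radiation and 5777, 7515, 5640 and 6507 after peroxide. The arrays of these 5 groups did not overlap, and the order ran from stress controls through heat stress, sugar and radiation to peroxide. The changes were 0.49 in heat stress, 0.84 in sugar, 1.12 after radiation and 1.94 after peroxide (SE 0.12 to 0.13), the last a 3.84-fold increase (adjusted p = 2.89e-14, limma). Peroxide exceeded radiation by 0.82 (SE 0.12, adjusted p = 5.91e-06, limma) and sugar by 1.10 (adjusted p = 1.07e-08, limma). The comparison of peroxide with radiation was added after the values were seen. Radiation exceeded sugar by 0.28, which was not called (adjusted p = 0.0944, limma).

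In the aging arrays RpL24-like read 2058, 2363, 2108 and 2413 in old flies, 1822, 2370 and 2468 (lowest, median and highest) in hyperoxia and 1329, 1559 and 1916 in young controls. Old flies lay above every young control, and hyperoxia overlapped them by 1 array. The changes were 0.50 in old flies (SE 0.11) and 0.52 in hyperoxia (SE 0.10). RpL7-like, the relative of a nucleolar assembly factor, was not called in any comparison, with changes of -0.14 in heat stress to 0.40 after peroxide.

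**Figure D5:**
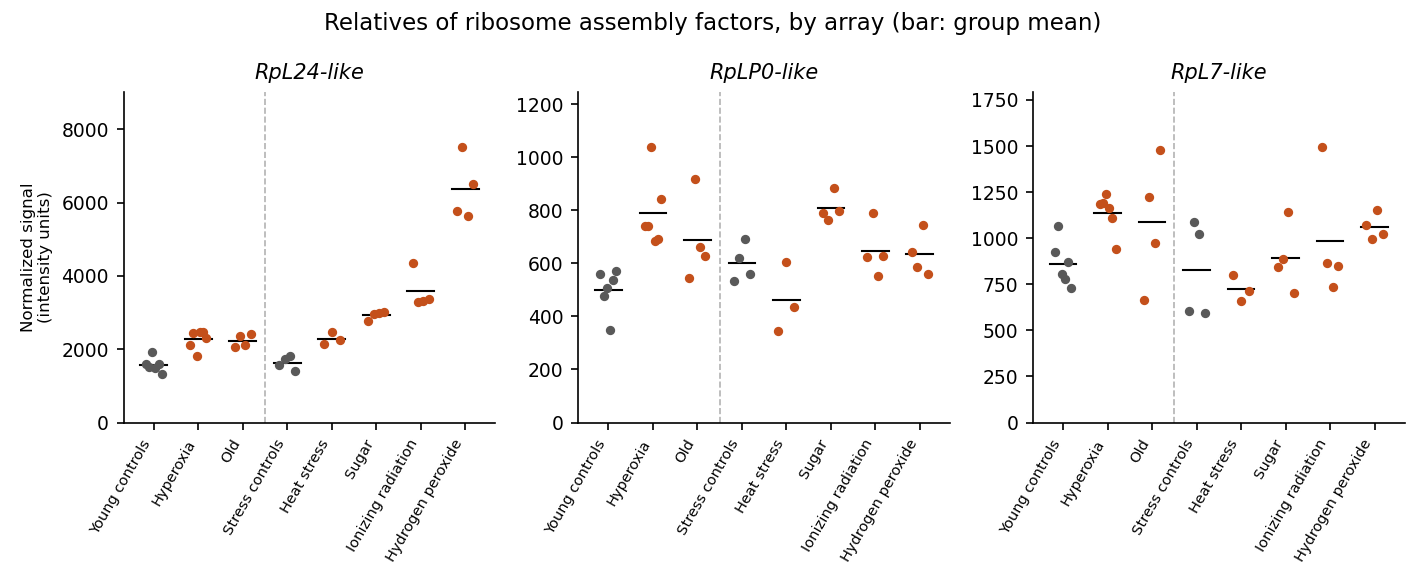
Normalized signal in intensity units (vertical axis) of RpL24-like, RpLP0-like and RpL7-like in each of the 35 arrays, by group, with gray points for control groups, orange points for the others, a bar for the group mean and a dashed line between aging and stress arrays. RpL24-like climbs from 1404 to 1806 in stress controls to 5640 to 7515 after peroxide, while RpL7-like overlaps its controls in the stress arrays.

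Other genes of ribosome assembly were taken from a list of 35 on the array. Of these, 12 were higher and none lower in old flies, 13 and 0 in hyperoxia, 18 and 1 after radiation, 17 and 1 after peroxide and 13 and 2 in sugar. In heat stress none was higher and 9 were lower, with a median log2 change of -0.22 against 0.00 for all probe sets, while RpL24-like was higher there. The medians elsewhere were 0.37 in old flies, 0.33 in hyperoxia, 0.37 after radiation, 0.56 after peroxide and 0.34 in sugar. eIF6, which keeps a new large subunit from joining a small one too early, rose by 1.16 in old flies, 1.47 in hyperoxia, 1.81 after radiation and 0.92 after peroxide (adjusted p = 2.14e-05 or less in each, limma). Its changes of 0.14 in heat stress and 0.33 in sugar were not called. Non1, a GTPase of large subunit assembly, rose by 1.05 after radiation and 1.37 after peroxide, and Ns1, a nucleolar GTPase, by 1.49 in sugar.

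Translation factors and growth signaling genes were called as follows. Of 21 initiation factor genes, 12 were higher after radiation (none lower), 12 after peroxide (1 lower), 6 in old flies (1 lower), 5 in heat stress and 3 in sugar (none lower in either) and 2 in hyperoxia (1 lower). Of 4 elongation factor genes, 3 were higher in sugar and 1 each in old flies, after radiation and after peroxide, and 1 was lower after radiation. Of 13 genes of insulin and TOR growth signaling, 4 were higher after radiation and 4 after peroxide, including InR, the insulin receptor, at 1.47 and 2.27. In old flies 2 were higher and 1 lower, in heat stress 2 and in sugar 1 were higher, and in hyperoxia none was called. Of 64 mitochondrial ribosomal protein genes, 10.9% were called lower in old flies and 3.12% in hyperoxia, where 12.2% and 7.61% of all probe sets were. In heat stress, after radiation and after peroxide 18.8%, 17.2% and 12.5% were lower, where 10.8%, 11.2% and 11.8% of all were. The shares in old flies and after peroxide were close to those of all probe sets. The numbers higher and lower were 1 and 7, 1 and 2, 1 and 12, 1 and 11, and 4 and 8 in these 5 comparisons. Of all probe sets 10.0%, 8.07%, 9.92%, 11.5% and 13.5% were called higher in them. In sugar the numbers were 5 and 1, where 7.34% of all probe sets were higher and 4.95% lower.

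Of the 61 called changes of the 37 genes in the 6 comparisons with controls, 45 held whichever array was left out, and 16 ended without some array. With only the 2 groups compared fitted, at adjusted p below 0.01 in place of the nested test, 15 of the 61 held and 46 did not. With replicate blocks by title or description number 55 and 53 held. For RpL40 in old flies 8 single omissions ended the call, those of Old replicates 1, 2 and 3 and of Young controls replicates 1 to 5 (log2 0.24 to 0.33). RpL37-1 in old flies lost its call without Old replicate 2 or 4 or Young controls replicate 1 or 4 (0.23 to 0.26), and RpL37A without Old replicate 3 or 4 or Young controls replicate 3 (0.25 to 0.28). RpLP2 in hyperoxia needed Hyperoxia replicates 1, 2 and 6 (0.36 to 0.39 without each). In heat stress RpL37A needed Heat stress replicates 1 and 3 and Stress controls replicates 1 and 3 (0.30 to 0.33), and RpL39 needed Heat stress replicates 1 and 2 and Stress controls replicate 1 (0.22 to 0.25), which left RpL23, RpL10Aa and RpL24-like. After radiation RpL37-2 needed Ionizing radiation replicates 2, 3 and 4 (-0.34 to -0.28) and RpL39 needed Stress controls replicate 1 (0.26). After peroxide RpS27A needed Hydrogen peroxide replicate 2 and Stress controls replicates 1, 2 and 4 (0.36 to 0.39), and RpS28b needed Hydrogen peroxide replicate 3 (0.25). In sugar RpL32 needed Sugar replicate 2 and Stress controls replicates 1 and 4 (0.23 to 0.26), RpLP1 needed Sugar replicate 3 and Stress controls replicate 3 (0.24 to 0.25), and RpLP0-like needed Sugar replicate 3 and Stress controls replicate 1 (0.36 to 0.37). The other 3 were RpL22-like after peroxide and RpS28a and RpLP0-like in old flies, given above. No call changed direction.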

How the data were processed

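Total RNA of 25 males per sample was hybridized to Affymetrix DrosGenome1 arrays, and the deposited values are linear signal intensities that the authors' processing notes credit to MAS5 (version not given in the sources used here). The study's own analysis used another model of the probe signals. Of 14010 probe sets, 44 controls were left out, and 13966 were tested on 35 arrays: 12443 were annotated to 1 gene, 327 to several and 1196 to none. Signals were quantile normalized on the log2 scale, log2 was taken after adding 34.1, which is their 10th percentile. limma 3.58.1 in R 4.3.3 fitted 8 group means (27 residual degrees of freedom). Calls against controls needed a false discovery rate of 1% in limma's nested F procedure and 1.2-fold, with counts at 1.5-fold given beside them. Calls against sugar, and of old against hyperoxia and peroxide against radiation (both added later), used adjusted p below 0.01 and 1.2-fold. Scripts were tested on simulated data. Replicate arrays are separate pools of flies, no 2 were identical, and their number limits the precision. Genes described in full were members of duplicate families and, per comparison and direction, up to 4 called members with the largest change. The members, their classes and all gene lists were chosen with earlier results of these data known. Alternatives were scaling to a trimmed mean, cyclic loess, a quantile map built without the 37 genes, other pseudocounts, a filter on dim probe sets, replicate blocks, fits to 2 groups only and leaving out each array. Gene and probe sequences were not used here.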

Additional observations from a re-analysis of the deposited data

Results flagged for a closer look

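Within groups of 4 to 6 arrays, 182 sets of values were searched for an array far from the others, and 17 had one (chance gives about 1 in 20). All values are log2 of normalized signal plus 34.1. Old replicate 2, the array with the lowest RNA quality, was apart in 3 genes. It read 15.31 for RpL10Ab where the other old arrays read 15.15 to 15.16, 14.86 for RpLP0 against 15.18 to 15.22, and 11.68 for RpS29 against 11.17 to 11.19. Ionizing radiation replicate 1 read 12.10 for RpL24-like, above 11.70 to 11.74. Among stress controls, replicate 4 was low in RpL10Aa (10.16 against 10.39 to 10.44) and replicate 3 in RpL10Ab (15.03 against 15.10 to 15.11). Among sugar arrays, replicate 3 was high in RpL37-2 (10.52 against 10.37 to 10.39) and low in RpS12 (14.54 against 14.62 to 14.64). Among peroxide arrays, replicate 4 was high in RpL37A (14.91 against 14.59 to 14.62) and low in RpS29 (10.73 against 11.05 to 11.09). Hyperoxia replicate 3 was high in RpL37-2 (11.39 against 11.00 to 11.13). Young controls held the other 6. Replicate 4 was low in RpLP0-like (8.58 against 9.00 to 9.24), replicate 3 in RpS19b (8.56 against 9.37 to 9.69), replicate 6 in RpS5b (10.63 against 10.82 to 10.91) and replicate 5 in RpS28b (14.70 against 14.77 to 14.80), and replicate 5 was high in RpS12 (14.53 against 14.43 to 14.46). The median of the small subunit genes in Young controls replicate 5, also 14.70 against 14.77 to 14.80, is the value of RpS28b itself.

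RpL10Aa and RpS28a were called lower in old flies and higher in hyperoxia. The difference between these groups was -0.90 and -1.12 on the log2 scale, and both were called. Both genes were picked by their opposite calls against the same young controls. A pass in this later comparison was therefore close to certain and adds no separate support.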

How the results depend on the processing

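The median change of the 37 genes stayed above 0 in each of the 6 comparisons with controls under every setting run. Counts of calls moved with the normalization, the fold threshold and the groups fitted. Scaling to a trimmed mean gave 23 called higher in old flies, 23 in heat stress, 23 after peroxide and 16 called for peroxide against sugar, with medians of 0.35 in old flies, 0.35 in heat stress, 0.25 after radiation and 0.41 after peroxide. Cyclic loess gave 17 higher in old flies, 22 in heat stress, 17 after radiation, 19 after peroxide and 6 in sugar, 7 and 14 called for radiation and peroxide against sugar, and medians of 0.23, 0.32, 0.29 and 0.35 in the first 4. A quantile map built without the 37 genes, added after the data were seen, gave 15 higher after radiation (median 0.26), 17 after peroxide (median 0.27) and 2 called for radiation against sugar. In these 11.6%, 13.7% and 7.33% of all probe sets were called higher. A pseudocount at the 25th percentile gave 1 lower in hyperoxia and 2 called for radiation against sugar. A pseudocount of 1 gave 1 lower in heat stress and 2 called for radiation against sugar. Without dim probe sets there were 1 lower in hyperoxia, 1 lower in heat stress and 2 called for radiation against sugar. At 1.5-fold, 0 were higher and 2 lower in old flies, 1 higher in hyperoxia, 0 in heat stress, 1 after radiation, 1 after peroxide and 2 in sugar (0 lower), with 0 and 1 called for radiation and peroxide against sugar. Fitting only the 2 groups compared, which uses fewer arrays and an adjusted p below 0.01 in place of the nested test, gave 0 higher and 1 lower in old flies, 0 higher in heat stress, 2 higher and 1 lower after radiation, 3 higher and 0 lower after peroxide, 2 higher in sugar, and 0 and 1 called for radiation and peroxide against sugar. The shares of all probe sets fell too. They were 3.9% higher and 5.94% lower in old flies, 3.27% higher in heat stress and 5.91% higher and 6.04% lower after radiation. After peroxide 7.58% were higher and 7.41% lower, and in sugar 2.28% were higher. Against sugar 5.52% were higher and 7.35% lower for radiation, and 6.86% and 6.44% for peroxide. The cause of these moves was not tested.

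Same-numbered arrays did not deviate together (mean correlations of -0.06 to 0.02 over 13 pairs of groups, with 0 of 50 array pairs above 0.1), so the numbers pair nothing. With a replicate block by title or by description number, 1 gene was called lower in heat stress and 1 was called for peroxide against sugar, and other counts stayed within 1.5 times.

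With single arrays left out, the genes higher and lower were 8 to 11 and 3 to 5 in old flies (median 0.15 to 0.20), 5 to 7 and 0 to 1 in hyperoxia (0.10 to 0.11), 4 to 6 and 0 to 1 in heat stress (0.11 to 0.16), 9 to 11 and 2 to 4 after radiation (0.19 to 0.21), 10 to 12 and 0 to 1 after peroxide (0.19 to 0.23) and 8 to 10 and 1 in sugar (0.13 to 0.15). Against sugar, 1 to 2 were called for radiation and 1 to 4 for peroxide, with 2 for radiation without Ionizing radiation replicate 1. For peroxide 1 was called without Sugar replicate 3 or 4 or Hydrogen peroxide replicate 1 or 4, and 4 without Hydrogen peroxide replicate 2.

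Among pairs, scaling brought RpL10Aa minus RpL10Ab in hyperoxia to 0.26, past the threshold. It turned the sign of 3 differences that had passed no test, to -0.15 for RpL37-2 minus RpL37-1 in heat stress, -0.26 for RpS28a minus RpS28b after peroxide and -0.0103 for RpLP0-like minus RpLP0 after radiation, and a pseudocount at the 25th percentile turned the RpS28 pair after peroxide to -0.027. Each gene had 1 probe set, so averaging probe sets of a gene gave no other value.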
